A study of Mus musculus with 57 samples.

Results

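The 2 histone marks of active chromatin, trimethylation of lysine 4 of histone H3 (H3K4me3) and acetylation of lysine 27 (H3K27ac), were compared in the cortex of the same 9 mice. The 18 libraries were those titled cortex for either mark, 9 of H3K4me3 and 9 of H3K27ac, out of 57 in the series, and they were paired by the animal code carried in the deposited names. Every mouse was labelled PSAPP, a strain used as a model of Alzheimer's disease that carries, among its transgenes, a chimeric mouse and human APP with a disease mutation (Mo/HuAPP695swe). They were 13 months old, had been housed singly on a modified AIN-93 diet, and their tissue was snap frozen before chromatin immunoprecipitation and sequencing. No group labelled as lacking the transgenes was among these libraries, so each comparison below is between marks and not between genotypes. The genotype is known from the label alone, and animal 5 stood apart from the others at Prnp, as described below. The sources used here do not name the promoter that drives the transgenes, and each library came from 1 animal. Chromosomes 1 to 19 were used, and animals are called by their replicate number, 1 to 9.

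H3K4me3 is laid down at the start sites of genes by the SET1 and MLL methyltransferases, which are drawn to unmethylated CpG-rich DNA, and it is known for sharp peaks there. H3K27ac is written by the acetyltransferases p300 and CBP both at active promoters and at active enhancers, and broad stretches of it are known at genes of cell identity. The same lysine 27 can instead be trimethylated by the Polycomb complex PRC2 (H3K27me3), a repressive mark that occurs beside H3K4me3 at promoters of developmental genes.

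Promoters of the groups described below differed in CpG content, and 7 of them are printed because the comparison of the marks turns on them. Each sequence is the 250 bases before the transcription start site (TSS) of a gene, written 5′ to 3′ on the strand of the gene, taken from the RefSeq mouse genome of build GRCm38 (mm10) and free of annotated exons. Capitals mark every CG dinucleotide, which reads the same on both strands. The first, from chr2:131909678-131909927 on the plus strand, holds 17 CG and was among the start sites richest in both marks. The second, chr11:100704272-100704521 on the minus strand, holds 0 CG and also had both marks, within a wide acetylated stretch. The next 3 had H3K4me3 in every animal and H3K27ac in none: chr10:120476470-120476719 on the minus strand with 8 CG, chr1:155742028-155742277 on the minus strand with 14 CG, and chr5:8566841-8567090 on the plus strand with 0 CG. The last 2 had H3K27ac in every animal and H3K4me3 in none, chr9:107609242-107609491 on the minus strand and chr8:4247964-4248213 on the plus strand, with 5 CG each.
Prnp: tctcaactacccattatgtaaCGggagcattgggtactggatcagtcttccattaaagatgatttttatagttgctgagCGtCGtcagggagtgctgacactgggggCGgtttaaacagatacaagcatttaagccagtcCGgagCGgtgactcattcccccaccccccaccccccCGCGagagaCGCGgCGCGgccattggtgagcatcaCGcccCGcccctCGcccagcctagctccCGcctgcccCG
Dhx58: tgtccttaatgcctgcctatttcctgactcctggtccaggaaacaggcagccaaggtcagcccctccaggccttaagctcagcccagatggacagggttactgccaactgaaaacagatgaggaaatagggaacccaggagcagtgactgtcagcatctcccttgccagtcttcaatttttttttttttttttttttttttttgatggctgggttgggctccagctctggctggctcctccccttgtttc
Hmga2: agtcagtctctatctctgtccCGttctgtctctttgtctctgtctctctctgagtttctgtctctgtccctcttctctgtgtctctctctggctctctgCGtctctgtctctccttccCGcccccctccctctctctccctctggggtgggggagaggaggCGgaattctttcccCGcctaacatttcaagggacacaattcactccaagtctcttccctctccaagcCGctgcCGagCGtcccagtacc
Lhx4: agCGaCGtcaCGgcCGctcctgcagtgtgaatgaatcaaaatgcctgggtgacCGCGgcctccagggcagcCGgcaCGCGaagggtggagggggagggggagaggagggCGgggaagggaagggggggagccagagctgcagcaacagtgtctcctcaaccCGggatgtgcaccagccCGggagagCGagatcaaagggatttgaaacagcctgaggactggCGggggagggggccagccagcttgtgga
Abcb1a: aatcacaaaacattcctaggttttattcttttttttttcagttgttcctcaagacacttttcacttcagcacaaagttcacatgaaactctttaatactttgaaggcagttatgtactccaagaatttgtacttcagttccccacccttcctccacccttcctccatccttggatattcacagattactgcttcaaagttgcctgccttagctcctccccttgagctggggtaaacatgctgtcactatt
Sema3b: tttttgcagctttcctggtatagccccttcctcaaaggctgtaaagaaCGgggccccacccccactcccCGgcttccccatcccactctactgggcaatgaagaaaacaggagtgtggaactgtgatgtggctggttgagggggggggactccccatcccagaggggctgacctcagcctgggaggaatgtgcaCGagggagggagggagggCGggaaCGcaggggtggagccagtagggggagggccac
Tgfbr3l: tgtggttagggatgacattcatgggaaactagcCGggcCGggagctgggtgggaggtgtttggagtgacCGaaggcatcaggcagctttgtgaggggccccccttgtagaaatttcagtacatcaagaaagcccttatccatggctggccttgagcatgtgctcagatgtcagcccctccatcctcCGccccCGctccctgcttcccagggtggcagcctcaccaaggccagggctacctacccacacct
Over the 19986 genes with a RefSeq Select transcript on chromosomes 1 to 19, 93.5% of such windows held at least 1 CG and the median was 11. At promoters with both marks the median was 17 CG, at those with H3K4me3 and no H3K27ac it was 12, and at those with H3K27ac and no H3K4me3 it was 3.

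The deposited values were peaks with the number of reads counted in each. Reads in peaks ran from 9323803 to 18622389 in the H3K4me3 libraries (median 10610722) and from 3903965 to 20972632 in the H3K27ac libraries (median 17313198). The acetyl library of animal 9 stood apart with the fewest reads and the fewest peaks, 45891, so some of the results that rest on it are given with and without it. Marks of brain cells were present as the labels say. Of 23 marker genes of neurons, astrocytes, oligodendrocytes, microglia and endothelium, 22 had an H3K4me3 peak in every cortex library, and 22 had an H3K27ac peak, against 9 and 7 in every gastrocnemius library. Of 6 muscle markers, 1 had H3K4me3 and 4 had H3K27ac in every cortex library, and their summed level in the cortex, in RPM (the reads-per-million scale of all reads in the peaks of a library), was 72.8 to 206 RPM for H3K4me3 and 159 to 295 RPM for H3K27ac, against at least 476 and 457 RPM in muscle. In bulk tissue, fewer cells of a type and less signal per cell cannot be told apart.

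H3K27ac formed many more peaks than H3K4me3 and covered far more of the genome. An H3K4me3 library held 21030 ± 1843 peaks (SD, n = 9), from 18492 to 24048 with a median of 21263. An H3K27ac library held 64407 ± 9005 peaks, from 45891 to 74382 with a median of 66115. Acetyl peaks outnumbered H3K4me3 peaks 3.04-fold and the ranges did not overlap. H3K4me3 covered 58.4 ± 4.70 Mb and H3K27ac 311 ± 40.8 Mb (SD, n = 9), a 5.30-fold difference. Density went the other way, with a median of 152 ± 16.0 reads per kb of H3K4me3 peak and 35.8 ± 8.50 per kb of H3K27ac peak. Each of these differences had the same sign in 9 of 9 animals, and the exact paired permutation test over 512 sign patterns gave p = 0.00391, the smallest it can give (two-sided, adjusted p = 0.00477 over 11 values). Reads in peaks differed by 0.29 ± 0.93 on the log2 scale (exact p = 0.418), while without animal 9 H3K27ac had more in 8 of 8 animals (0.58, exact p = 0.00781).

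The marks coincided in a lopsided way. In the same animal, 92.5% ± 4.79 of H3K4me3 peaks overlapped an H3K27ac peak by at least 1 bp (SD, n = 9; lowest 80.3%, median 93.4%, highest 96.3%). Only 28.5% ± 4.55 of H3K27ac peaks overlapped an H3K4me3 peak (lowest 24.7%, median 27.9%, highest 39.1%). Both extremes, the lowest H3K4me3 share and the highest H3K27ac share, came from animal 9, the one with the shallow acetyl library, and the ranges of the marks did not overlap (difference of -64.0 points, same sign in 9 of 9 animals, exact paired permutation p = 0.00391, adjusted 0.00477). With each animal left out in turn the difference ran from -66.9 to -63.1 points. Both shares count nearly the same overlaps, and acetyl peaks were 3.04-fold more numerous, so this test largely repeats that of peak number. By reads the H3K4me3 share was higher still, since 99.1% ± 0.716 of its reads lay in peaks that met H3K27ac, against 56.5% ± 2.51 of acetyl reads in peaks that met H3K4me3. By length, acetylation covered 91.8% ± 3.54 of H3K4me3-marked bases and H3K4me3 covered 17.5% ± 2.94 of acetylated bases. H3K4me3 peaks that met no acetyl peak were narrower (median 1156 ± 167 bp against 2422 ± 233 bp) and sparser (45.3 ± 10.5 against 174 ± 31.5 reads per kb). Acetyl peaks without H3K4me3 were likewise narrower (3089 ± 426 against 4467 ± 436 bp) and sparser (32.3 ± 7.79 against 66.2 ± 18.4 reads per kb). Pairing with another animal gave nearly the same shares as pairing within the animal, with medians of 93.2% and 93.4% for H3K4me3 and 27.6% and 27.9% for H3K27ac.

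**Figure D1:**
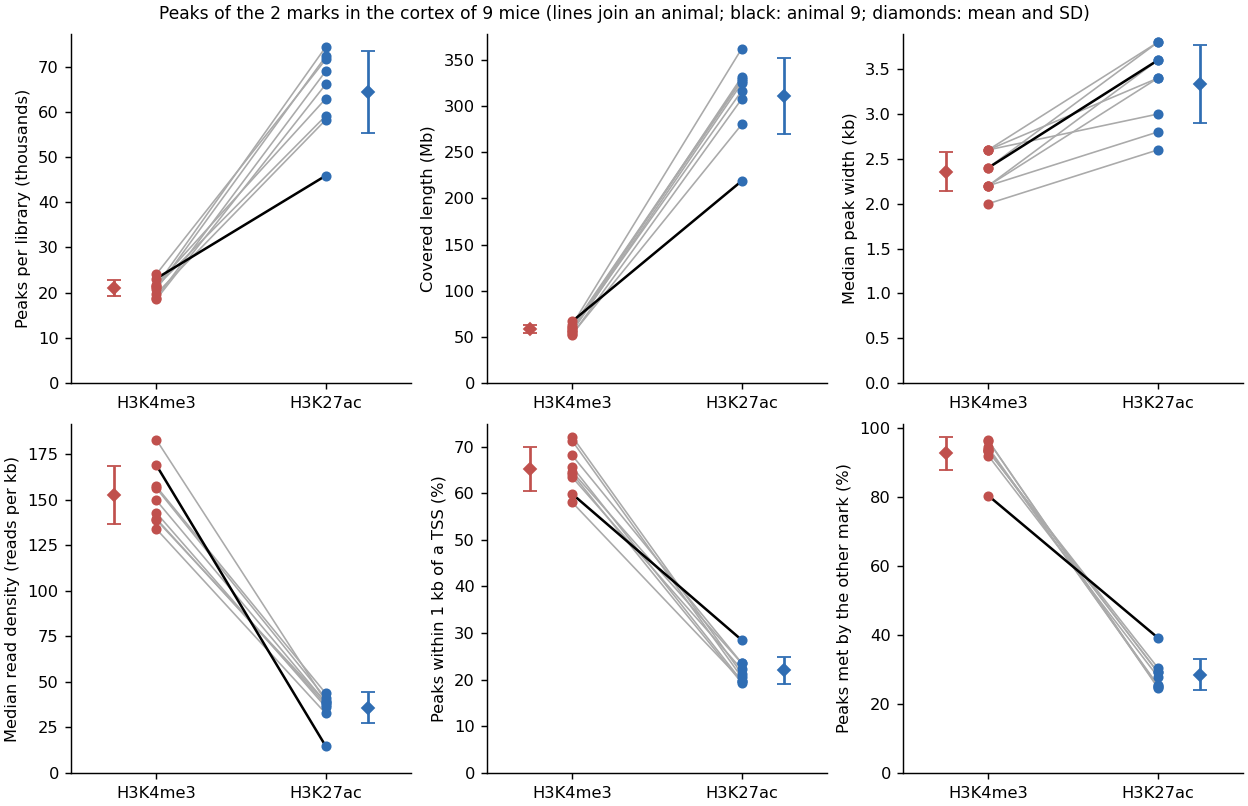
The 6 library values of each animal, H3K4me3 in red and H3K27ac in blue, on linear axes from 0: peaks per library, covered length in Mb, median peak width in kb, median reads per kb of peak, percent of peaks within 1 kb of a TSS, and percent of peaks met by the other mark. Lines join the libraries of an animal, black for animal 9, and diamonds with bars give mean and SD (n = 9); in every panel but peak width the marks do not overlap.

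Distance from start sites separated the marks. Peaks within 1 kb of a TSS made up 65.2% ± 4.72 of H3K4me3 peaks and 22.0% ± 2.90 of H3K27ac peaks (SD, n = 9), and 91.0% ± 0.657 of H3K4me3 reads against 48.9% ± 2.12 of H3K27ac reads. The median H3K4me3 peak lay at a distance of 0 kb, overlapping a TSS, in all 9 animals. The median H3K27ac peak lay 17.0 ± 1.82 kb away, from 12.4 kb in animal 9 to 18.2 kb. All 3 differences held in 9 of 9 animals (exact paired permutation p = 0.00391, adjusted 0.00477). Between 10 and 100 kb from a TSS lay 49.4% ± 1.87 of acetyl peaks and 20.2% ± 2.92 of H3K4me3 peaks, and beyond 100 kb 11.1% ± 1.04 and 4.88% ± 0.954. Within 1 kb of a TSS most peaks of both marks met the other, 95.8% ± 2.23 of H3K4me3 and 90.3% ± 1.59 of H3K27ac. At 1 to 10 kb the shares parted to 89.6% ± 5.86 and 13.1% ± 3.51, and beyond 100 kb they were 78.2% ± 10.9 and 10.9% ± 3.12. Where H3K4me3 occurred far from genes it thus mostly lay on acetylated chromatin, whereas distal acetylation mostly lacked H3K4me3. With the 18492 best-scoring peaks of each library, the share at promoters still differed by -12.8 points, but the median distance was 0 for both marks.

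**Figure D2:**
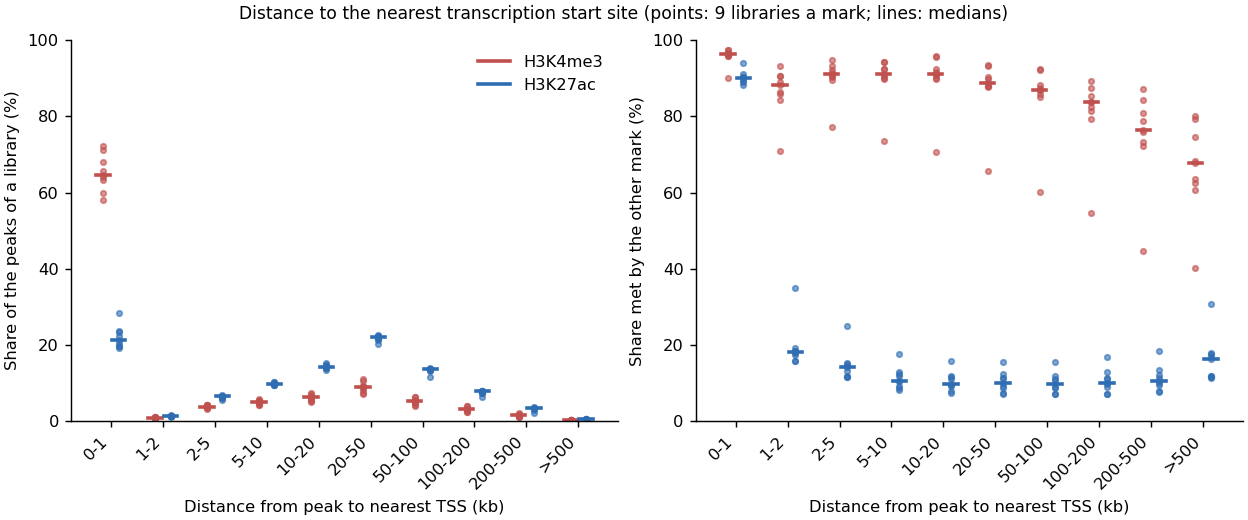
Left, percent of the peaks of a library by distance to the nearest TSS in kb; right, percent of those peaks met by the other mark in the same animal. Points are 9 libraries a mark (H3K4me3 red, H3K27ac blue) and lines medians; the marks are alike only within 1 kb, where at least 88.4% of peaks of either mark met the other in every animal, and the H3K4me3 point below the others is animal 9.

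Acetyl peaks were also wider. The median peak width was 2356 ± 219 bp for H3K4me3 and 3333 ± 436 bp for H3K27ac (1.41-fold, wider in 9 of 9 animals, exact paired permutation p = 0.00391, adjusted 0.00477), although the ranges touched. At start sites with both marks, 12999 ± 216 genes an animal, the acetyl peak nearest the TSS was the wider at 81.1% ± 5.87 of genes (67.4% to 86.8%). The median widths there were 3089 ± 203 and 5356 ± 631 bp, and the median log2 ratio was 0.69 ± 0.17, a 1.61-fold excess (9 of 9 animals, exact paired permutation p = 0.00391, adjusted 0.00477). Both marks reached farther into the gene than upstream of it: H3K4me3 969 ± 66.4 bp upstream and 1896 ± 131 bp downstream, H3K27ac 1676 ± 160 and 3109 ± 338 bp. Width went with coincidence. Of the widest 5% of H3K4me3 peaks a median of 99.2% met H3K27ac, and of the narrowest 50% a median of 88.8%. Of the widest 5% of H3K27ac peaks a median of 63.9% met H3K4me3, against 19.1% of the narrowest 50%.

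Promoters fell into unequal classes. A gene counted as marked when all 9 libraries of a mark had a peak within 1 kb of its TSS, and as unmarked when none had. Of 19986 genes, 12248 (61.3%) had both marks, 109 (0.545%) had H3K4me3 without H3K27ac, 315 (1.58%) had H3K27ac without H3K4me3, 4928 (24.7%) had neither, and 2386 (11.9%) varied between animals in one mark or the other. Without animal 9 the counts were 12613, 109, 420 and 4936 for the first 4 classes. The 2 classes with 1 mark depended on the peak set, with 1084 and 113 genes when each library gave its 18492 best-scoring peaks, which turned their order, and 441 and 888 when 5 of 9 libraries sufficed. In a single library, 67.6% ± 0.729 of TSSs had H3K4me3 and 69.5% ± 1.78 had H3K27ac (SD, n = 9). The difference of 1.98 points held in 8 of 9 animals (exact paired permutation p = 0.0313, adjusted 0.0344), but the adjusted p was 0.0602 or 0.0688 when any one of animals 1 to 8 was left out. With equally many best-scoring peaks its sign turned (-7.76 points, exact p = 0.00391). CpG-rich start sites, defined over 500 bp on either side by a CpG observed to expected ratio of at least 0.6 and at least 50% GC, made up 76.4% of promoters with both marks, 60.6% of those with H3K4me3 alone, 0% of those with H3K27ac alone and 2.39% of those with neither, against 49.9% of all genes. For H3K4me3 alone the share was 44.5% with equally many peaks, 42.4% with at least 5 of 9 libraries and 40.6% with at least 3, under that of all genes.

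Presence of H3K27ac rose in steps with the level of H3K4me3. Of 13104 genes with H3K4me3 in every animal, H3K27ac was in all 9 animals at 12248 (93.5%), in 5 to 8 at 603, in 1 to 4 at 144 and in none at 109. By mean H3K4me3 level, H3K27ac was present in all 9 animals at 16.9% of genes under 5 RPM, 34.5% from 5 to 10 RPM, 62.2% from 10 to 20 RPM, 95.1% from 20 to 50 RPM and 99.9% of the 9177 genes at 50 RPM or more. The median level was 73.0 RPM of H3K4me3 and 31.0 RPM of H3K27ac at promoters with both marks. It was 6.59 RPM of H3K4me3 where H3K27ac was lacking, and 26.9 RPM of H3K27ac where H3K4me3 was lacking. Median peak widths in these classes were 3 kb of H3K4me3 and 5.6 kb of H3K27ac with both, 1.6 kb of H3K4me3 alone and 8.4 kb of H3K27ac alone. Promoters with H3K4me3 alone were thus weakly marked, and a peak too low to be called cannot be told from an absent one in these files.

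H3K27me3, which the classes did not use, was more frequent at H3K4me3 promoters that lacked H3K27ac in some or all animals than at those with it in all 9. In at least 5 animals it lay at 71.6% of those with H3K27ac in none, 71.5% with it in 1 to 4, 66.8% with it in 5 to 8 and 13.8% with it in all 9. A peak of H3K27me3 in the cortex lay at 72.1% ± 2.01 of its genes (SD, n = 9), at 14.1% ± 0.768 of those with both marks and at 24.3% ± 1.44 of those with H3K27ac alone, with 22.5% ± 0.912 over all genes. The first class exceeded the second by 58.0 points (55.4 to 60.7) and the third by 47.7 points, and the third exceeded the second by 10.3 points, each in 9 of 9 animals (exact paired permutation p = 0.00391, adjusted 0.00391 over 12 tests). Within bands of H3K4me3 level the gap had no single sign. Under 5 RPM an H3K27me3 peak in at least 5 animals lay at 36.4% of 22 genes without H3K27ac and at 53.8% of 13 genes with it in all 9. From 5 to 10 RPM an H3K27me3 peak in at least 5 animals lay at 77.6% of 67 genes without H3K27ac and at 48.4% of 182 genes with it in all 9. From 10 to 20 RPM the shares were 89.5% of 19 and 47.5% of 514 genes.

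In gastrocnemius muscle, from 10 libraries a mark, the cortex classes also differed. H3K4me3 was found in muscle at 96.3% ± 0.414 of genes with both marks in cortex (SD, n = 10), 72.2% ± 3.75 of those with H3K4me3 alone and 25.6% ± 5.31 of those with H3K27ac alone, against 66.1% of all genes. H3K27ac was found at 93.0% ± 0.729, 34.7% ± 3.53 and 82.8% ± 1.92 of them, against 66.2% of all genes, and H3K27me3 at 20.4% ± 1.49, 63.8% ± 2.94 and 28.0% ± 4.78, against 24.4%. H3K4me3 at the class with H3K4me3 alone and H3K27me3 at the class with H3K27ac alone were thus near the share of all genes. All 9 differences between classes had the same sign in 10 of 10 libraries (exact permutation p = 0.00195, adjusted 0.00260), and all 9 kept their sign and call without the muscle of animal 5, which is described below.

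**Figure D3:**
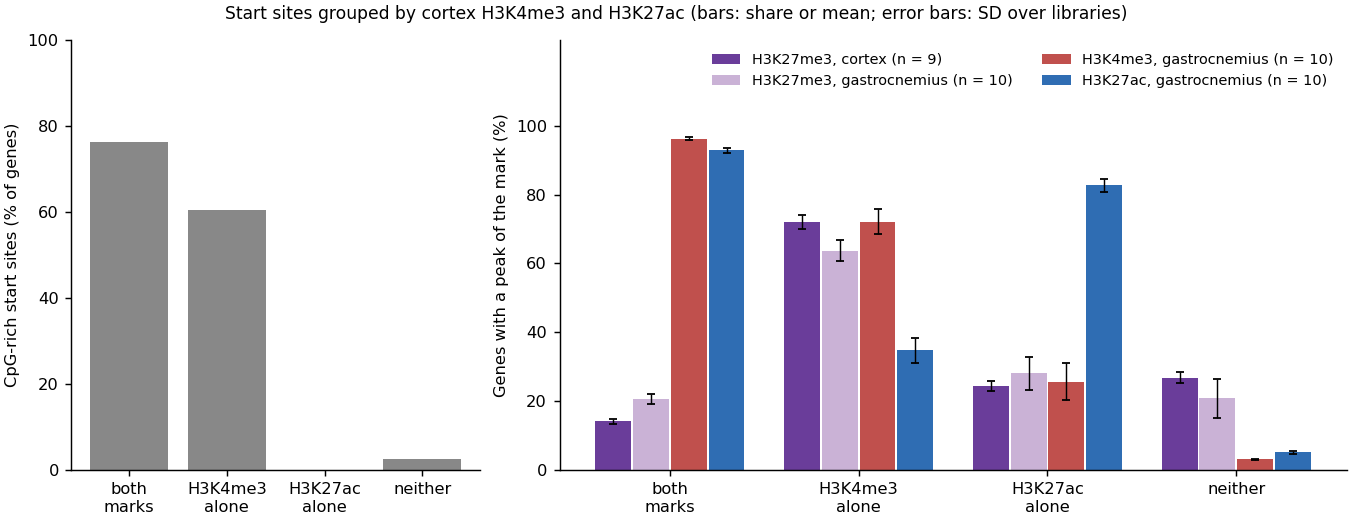
Left, percent of genes with a CpG-rich start site in 4 classes set by cortex H3K4me3 and H3K27ac; right, mean percent of those genes with a peak of H3K27me3 in cortex (n = 9 libraries) or of each of 3 marks in gastrocnemius (n = 10), with SD as bars and axes from 0. H3K27me3 is highest in the class with H3K4me3 alone (72.1% in cortex), and no gene with H3K27ac alone is CpG-rich.

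The promoters richest in both marks, ranked by the smaller of the 2, were those of Sfi1, Bcl11a, Prnp, Zeb2, Setd1b, Rhof, Dbp and Tnrc18. Sfi1, which encodes a centrosome protein, held 1055 to 1561 RPM of H3K4me3 (median 1310) and 325 to 603 RPM of H3K27ac (median 529) in peaks of about 71 kb that also carried H3K27me3 in 9 of 9 animals. Whether copies of this sequence that mm10 lacks add reads there was not tested. Bcl11a, a transcription factor of cortical neurons, held 269 to 337 RPM of H3K4me3 (median 299) over 23.6 kb and 187 to 437 RPM of H3K27ac (median 316) over 64.8 kb. Zeb2, a zinc finger repressor needed in neural and glial development, had 222 to 321 RPM of H3K4me3 (median 284) but a wider spread of H3K27ac, 174 to 631 RPM (median 263). Setd1b, itself an H3K4 methyltransferase, and its neighbour Rhof lay in the same peaks, so their values are the same, 298 to 368 RPM of H3K4me3 and 217 to 290 RPM of H3K27ac. Dbp, an output gene of the circadian clock, held 185 to 269 RPM and 220 to 286 RPM, and Tnrc18 470 to 542 RPM and 181 to 278 RPM.

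Prnp, the prion protein gene (chromosome 2, TSS 131909928), separated 1 animal from the other 8 in both marks. H3K4me3 was 106 RPM in animal 5 and 463 to 597 RPM in the others (median 533), so that the lowest of the others was 4.35-fold higher. H3K27ac was 57.9 RPM in animal 5 and 281 to 388 RPM in the others (median 324), with the lowest of them 4.84-fold higher. H3K27me3 had no called peak at Prnp in animal 5 and 350 to 538 RPM in the others. The muscle of the same animal, replicate 6 of the gastrocnemius, showed the same, with 56.6 RPM of H3K4me3 and 56.7 RPM of H3K27ac against 347 to 482 and 316 to 544 RPM in the other 9, and with no H3K27me3 peak against 325 to 605 RPM. App, the mouse gene whose chimeric form is expressed in this strain, did not stand apart in animal 5, with 186 RPM of H3K4me3 against 176 to 193. All 6 libraries of this animal carry the same strain label as the rest, and what set Prnp apart in it was not tested. Whether this animal carries the transgenes, and whether reads of the transgenes count toward Prnp in the other 8, was not tested either, so the level of Prnp and its place among the promoters richest in both marks hold for reads assigned to this locus. Leaving animal 5 out gave 12254 promoters with both marks, 117 with H3K4me3 alone and 323 with H3K27ac alone.

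**Figure D4:**
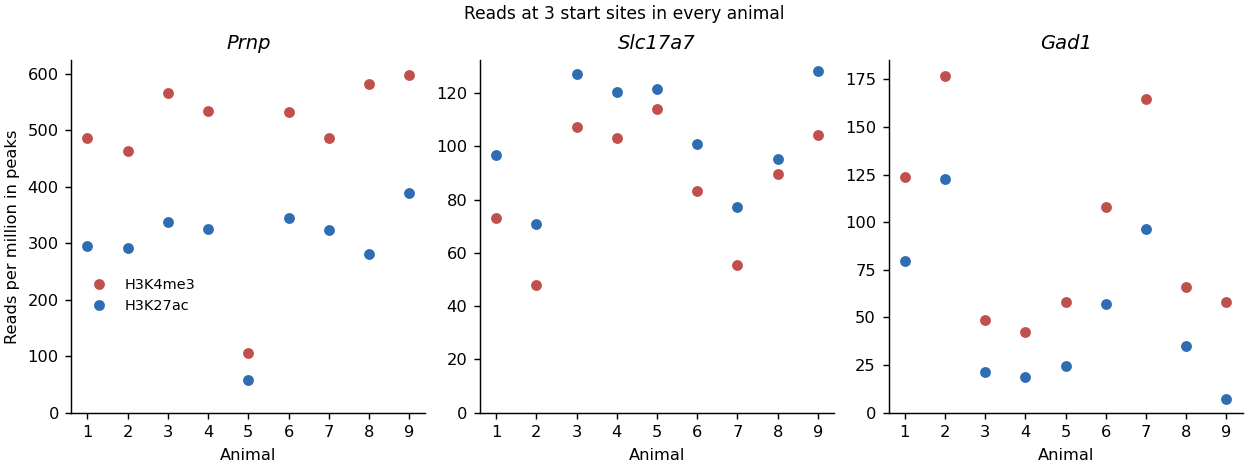
RPM at the start sites of Prnp, Slc17a7 and Gad1 in each of 9 animals (H3K4me3 red, H3K27ac blue; linear axes from 0, a scale of its own for each gene). Animal 5 is lowest at Prnp in both marks (106 and 57.9 RPM), and animals 1, 2 and 7 are highest at Gad1 in both marks and lowest at Slc17a7 in H3K4me3, with overlap in H3K27ac.

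Another pattern ran through both marks across animals. Gad1, which makes the transmitter GABA in inhibitory neurons, held 124 to 177 RPM of H3K4me3 in animals 1, 2 and 7 and 42.4 to 108 RPM in the other 6, and 79.6 to 123 RPM of H3K27ac against 7.17 to 57.1 RPM. Dlx6, a transcription factor of inhibitory neurons, followed Gad1, with 153 to 418 RPM of H3K4me3 against 49.2 to 134 and 156 to 204 RPM of H3K27ac against 5.88 to 123. Slc17a7, the vesicular glutamate transporter of excitatory neurons, was lower in these 3 animals in H3K4me3, 48.0 to 73.2 RPM against 83.1 to 114, while its H3K27ac overlapped, 70.6 to 96.7 RPM against 95.1 to 128. These animals were picked for their values, so no test was made, and the share of neurons of each kind in the dissected tissue was not tested.

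By H3K4me3 level, the first 8 of the 109 promoters with H3K4me3 and no H3K27ac were Ugt1a1, Abcb1a, Osr2, Gata6, Hmga2, Gfi1, Foxb2 and Lhx4, and all but Abcb1a had H3K27me3 in 9 of 9 animals. Ugt1a1, the liver enzyme that conjugates bilirubin, ranged from 6.62 RPM in animal 5 to 227 RPM (median 54.5). Animal 5 stood apart here as at Prnp, with H3K27me3 at 129 RPM against 860 to 1690 in the other cortexes and muscle H3K4me3 at 14.1 RPM against 190 to 300 RPM, while its muscle H3K27me3 lay within the range of the others. Its TSS lies among overlapping Ugt1a genes with shared exons, so these reads are not its own for certain, and the merged stretch of 60 kb around it met H3K27ac elsewhere in all 9 animals. Abcb1a, the drug efflux pump of the blood-brain barrier, held 14.6 to 25.4 RPM of H3K4me3 (median 16.1) on a start site whose 250 upstream bases, printed above, hold 0 CG. Hmga2, a chromatin protein of embryonic cells, held 12.5 to 17.5 RPM (median 15.4), and Lhx4, a homeobox factor of motor neuron and pituitary development, 11.0 to 16.4 RPM (median 13.3). No animal had an acetyl peak at any of these start sites.

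The list of 36 developmental transcription factors had 7 in the class with H3K4me3 alone, 3 with both marks, 5 with neither and 21 that varied, and with H3K27me3 in at least 5 animals at all 36, against 4424 of all 19986 genes. The 7 were Pax3, Pax9, Sim1, Shox2, Gsc, T and Gata6, at 5.08 to 17.0 RPM of H3K4me3 on average. Pax3, a factor of the dorsal neural tube and of muscle precursors, held 5.51 to 8.59 RPM in the 9 animals. Of 39 Hox genes, which set position along the body axis and stay silent in the forebrain, 26 had neither mark, 10 varied and 3 had H3K4me3 alone, among them Hoxa4 at 3.69 and Hoxd9 at 5.09 RPM on average, and all 39 had H3K27me3. Of 1101 olfactory receptor genes, expressed in the nose, 1087 had neither mark, 1 had both and 1 had H3K4me3 alone. Of all genes, 0.545% had H3K4me3 alone, 61.3% had both marks, 24.7% had neither and 11.9% varied, and no test was made on these lists.

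The 315 promoters with H3K27ac and no H3K4me3 were of another kind. Their leading genes were Il12rb1, Fam83e, Cyp2w1, Sema3b, Mybph, Jsrp1, Csf3 and Tgfbr3l, a mixed set of receptors, enzymes and muscle proteins, in acetyl peaks of 34.4 to 70.2 kb. Il12rb1, a receptor subunit for interleukin 12, held 183 RPM of H3K27ac in animal 7 and up to 460 RPM in the others (median 427). In all animals but animal 7 its acetyl reads were those of Ifi30, described below, with acetyl widths of 70.2 kb at both genes. Sema3b, a secreted axon guidance protein, ran from 55.3 to 306 RPM (median 240), and Tgfbr3l from 26.1 RPM in animal 9 to 212 RPM (median 196). Jsrp1, a protein of the muscle sarcoplasmic reticulum, ran from 2.35 to 378 RPM (median 323), the widest spread of the 8 as a ratio of highest to lowest. At Fam83e the median and the highest value, 256 and 286 RPM, were those of Dbp, with equal acetyl widths of 34.4 kb at the 2 genes, while H3K4me3 lay at Dbp alone.

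Acetylation of such promoters thus often belonged to a wider stretch. In a median of 31.4% of the 315 genes (23.5% to 37.8% by animal), the acetyl peak also held the TSS of another gene over 1 kb away, against 17.0% of genes with both marks. In a median of 34.0% it met an H3K4me3 peak elsewhere along its length, and the nearest H3K4me3 peak lay a median of 8.68 kb from the TSS. At 143 genes (45.4%) the acetyl peak met no H3K4me3 peak in any animal. Flrt1, an adhesion protein of neurons, led these with 90.7 to 174 RPM over a median of 42.8 kb, followed by Mybphl, Slc45a4, Angptl7, Kazn, Lime1, Endou and Nppa. Of 20 skeletal muscle genes, 4 had H3K27ac alone in the cortex (1.58% of all genes did), Casq1, Myog, Tnni2 and Myh7, at 13.7 ± 3.63 (Myog) to 28.4 ± 12.4 RPM (Myh7; SD, n = 9), 1 (Actn3) had both marks, 6 had neither and 9 varied.

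Genes of neurons, astrocytes and oligodendrocytes were mostly in the class with both marks, which holds 61.3% of all genes. The count was 17 of 18 for excitatory neurons, 17 of 18 for the synapse, 20 of 21 for glutamate and GABA receptors, 16 of 16 for astrocytes and 16 of 18 for oligodendrocytes. It was 10 of 16 for inhibitory interneurons, 12 of 22 for microglia and 8 of 14 for endothelium and pericytes, near the share of all genes, and none of their other members were in a class with 1 mark alone. P2ry12, the purinergic receptor of resting microglia, varied between animals, with H3K4me3 called in all but 1 of them, at 0 to 8.38 RPM. All 20 immediate early genes, all 20 genes of amyloid processing and Alzheimer risk, all 24 writers and erasers of histone marks and all 20 housekeeping genes had both marks in every animal.

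Away from promoters the marks parted most. Merged peaks called in all 9 libraries gave 16841 H3K4me3 sites, of which 3630 (21.6%) lay over 3 kb from every TSS, and 25348 H3K27ac sites, of which 13333 (52.6%) did. At the distal H3K4me3 sites H3K27ac was present in all 9 animals at 77.9% and in none at 68 sites, a count that was 1015 with equally many best-scoring peaks and 228 with at least 5 of 9 libraries. Of the distal H3K27ac sites 9106 (68.3%) had no H3K4me3 in any animal and 15.7% had it in all 9. Without animal 9, 18049 distal H3K27ac sites were found and 12962 lacked H3K4me3, with equally many peaks 2312 and 1258, and with at least 5 of 9 libraries 29409 and 22995. Among distal H3K4me3 sites without acetylation a median of 57.4% carried H3K27me3 in a cortex library, against 19.1% of those with acetylation in all animals. In muscle, H3K27ac lay at a median of 61.5% and H3K4me3 at 11.4% of the distal acetyl sites that lacked H3K4me3 in cortex, against 77.1% and 79.4% of those with H3K4me3 in all 9 animals. The sites of both kinds are given by counts only, since calling a site in every library favours strong sites.

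The widest H3K4me3 sites lay at or nearest to Sfi1 (72.8 kb), Ugt1a1 (60 kb), Pou3f3 (32.4 kb), Cbarp (32 kb), Mef2c (30.4 kb), Sox2, Dlx6 and Bcl11a. Of these nearest genes, 5 encode transcription factors of neural cells. That of Mef2c, a factor of cortical neurons, lay 188 kb from its TSS, with a widest acetyl peak of 29.6 to 35.4 kb by animal (median 31.2 kb) against 28.4 to 30 kb of H3K4me3 (median 29.6 kb). The widest H3K27ac sites were merged from narrower peaks that shifted between animals and were nearest, among others, to Celf4 (279 kb), Otulinl, Pxdn, Rpl22, Ghrl, Tcf4 and Iqsec1. At Celf4, an RNA-binding protein of neurons, the widest single acetyl peak of an animal ran from 21 to 136 kb and the widest H3K4me3 peak from 7.4 to 9.4 kb. The merged lists shared no locus, yet the median widest acetyl peak was 70.4 kb at Sfi1, 72.4 kb at Cbarp and 64.8 kb at Bcl11a, above the 54.2 kb at Celf4. Celf2, another neuronal RNA-binding protein, had the most distal acetyl sites, 26, all without H3K4me3, followed by Phtf2, Spock1, Ank2 and Rbfox1 with 18 and Cadm1, Ptprn2 and Ntm with 17. Sites were assigned to the nearest TSS without a limit of distance. The farthest site lay 325 kb away at Cadm1, the least of these genes, and 1456 kb away at Celf2. These counts thus also depend on the spacing of genes.

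Reads were then compared between the marks at the 12248 promoters with both, taking all reads of the peaks within 1 kb of the TSS, with edgeR's quasi-likelihood test, TMM scaling, the animal as a block and a false discovery rate under 0.1. TMM centres the typical promoter at 0, so a difference says that a promoter held more acetyl than H3K4me3 reads relative to the typical one. H3K27ac was higher at 5134 promoters (41.9%) and H3K4me3 at 5248 (42.8%), so that 84.8% were called. Differences of at least 2-fold were lopsided, with 2237 promoters (18.3%) for H3K27ac and 177 (1.45%) for H3K4me3 (2866 and 551 when genes with a peak in at least 9 of the 18 libraries were let in), and at 6149 (50.2%) the scaled reads did not overlap between the marks. Scaling by reads in peaks moved the median of all promoters from -0.01 to -1.32 on the log2 scale and turned the split to 1170 and 10140, and that at 2-fold to 472 and 7892, so every direction below is relative to the typical promoter. Counting only reads within 2.5 kb of the TSS gave 4534 promoters (36.5%) with higher H3K27ac and 4809 (38.7%) with higher H3K4me3 of 12425, with 857 and 28 at 2-fold. Of the 5134 promoters, 968 were called the other way in that window, and of the 5248, 449 were.

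Peak width went with the direction. Promoters with relatively more H3K27ac had median widths of 3.4 kb of H3K4me3 and 10.8 kb of H3K27ac, and 66.0% were CpG-rich. Those with relatively more H3K4me3 had 2.8 and 3.8 kb, and 85.6% were CpG-rich. At a 2-fold excess of H3K27ac the acetyl width was 18.2 kb, and at a 2-fold excess of H3K4me3 it was 2 kb. Reads of whole peaks were counted, so a wider acetyl peak raises the acetyl count in itself, and this link is not a separate result.

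The most acetylated promoters relative to H3K4me3 lay in acetyl peaks of 33.4 to 104 kb, with H3K4me3 peaks of 1.2 to 6.6 kb. Large2, a glycosyltransferase of dystroglycan (chromosome 2, TSS 92371057), led with 706 to 1195 scaled RPM (after TMM) of H3K27ac (median 1012) and 2.61 to 5.60 of H3K4me3 (median 3.56), a log2 difference of 7.97 ± 0.20 (SE; edgeR adjusted p = 4.04e-10) that was 4.04 within 2.5 kb. Tbxa2r, the thromboxane receptor (6.48 ± 0.60), Lyl1, a blood cell transcription factor (6.02 ± 0.64), Ifi30, a lysosomal reductase of antigen presenting cells (6.01 ± 0.16), and Fam174c (6.00 ± 0.35) followed. The acetyl reads of Ifi30 were those of Il12rb1 in all animals but animal 7. Dgkz and Mdk lay in 1 acetyl peak (730 to 931 scaled reads) and differed by 6.04 ± 0.21 and 5.80 ± 0.43. Dhx58, a sensor of viral RNA whose CG-free promoter is printed above, held 248 to 470 of H3K27ac (median 339) and 1.97 to 12.7 of H3K4me3 (median 5.31), and its acetyl reads were those of Kat2a, the acetyltransferase gene beside it, which lay in the same peak. These 8 were called in the same direction in every alternative that was run, and within 2.5 kb they kept differences of 2.68 to 4.04.

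Promoters with the strongest relative H3K4me3 were narrow in both marks, 1.6 to 2 kb of H3K4me3 and 1.4 to 2 kb of H3K27ac. Bard1, the partner of Brca1 in DNA repair (chromosome 1, TSS 71102972), held 47.9 to 58.6 scaled RPM of H3K4me3 (median 54.8) and 13.9 to 19.6 of H3K27ac (median 17.4), a log2 difference of -1.69 ± 0.05 (SE; edgeR adjusted p = 1.03e-09). Cenpw, a centromere protein (-1.66 ± 0.08), and Oip5 and Nusap1, a centromere and a spindle protein that share a promoter and hence their reads (-1.66 ± 0.08), came next. Net1, a guanine nucleotide exchange factor, differed by -1.65 ± 0.06, and Cep128 and Pi4k2b by -1.50 and -1.48. Mettl2, a tRNA methyltransferase, held 54.7 to 64.1 of H3K4me3 (median 58.5) and 14.4 to 23.1 of H3K27ac (median 19.4), a difference of -1.61 ± 0.07. Genes whose marks overlapped between animals had been left out of this choice. Within 2.5 kb these 8 had differences of -1.07 to -1.29.

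**Figure D5:**
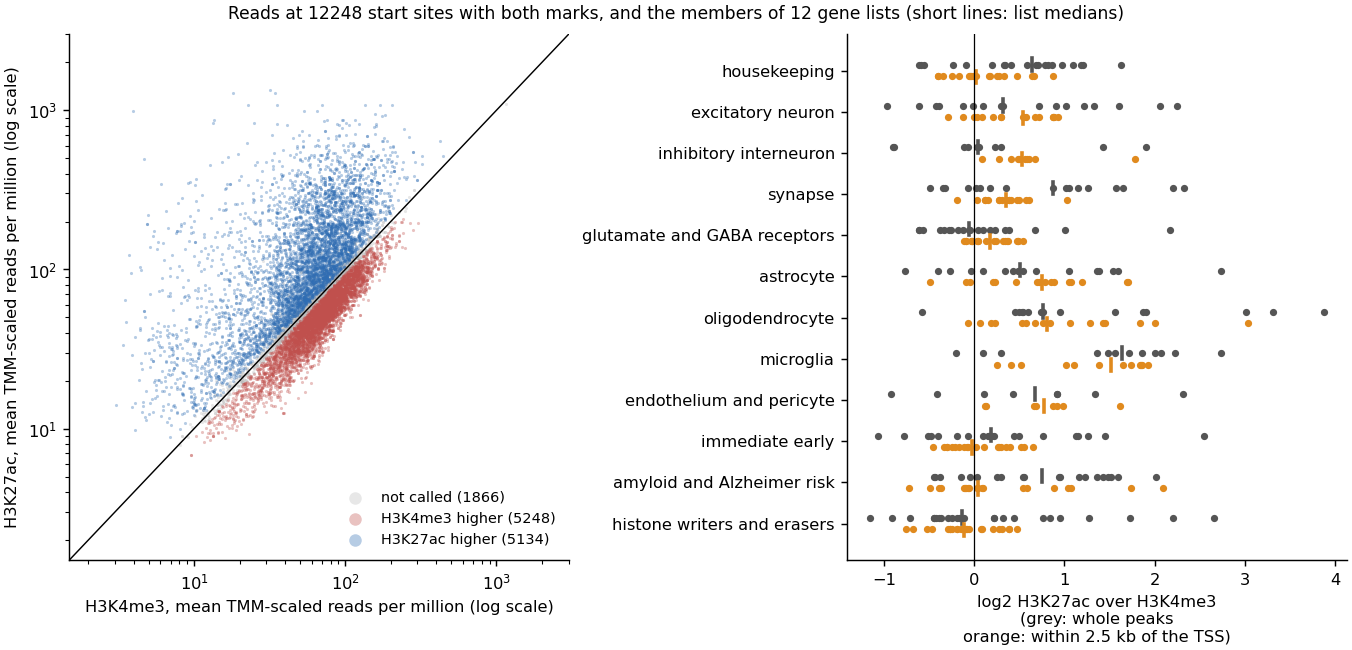
Left, mean TMM-scaled RPM of H3K4me3 and H3K27ac at 12248 promoters with both marks (log axes; blue, H3K27ac higher; red, H3K4me3 higher; grey, not called; the line marks equality). Right, log2 difference of H3K27ac over H3K4me3 for the members of 12 gene lists, from whole peaks (grey) and within 2.5 kb of the TSS (orange), with short lines as list medians; microglial genes have the highest medians, 1.64 and 1.51, among these lists, against -0.01 and -0.03 over all genes.

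Genes of glia held more acetylation relative to H3K4me3 than the typical promoter. Of the 12 microglial genes with both marks, 9 were called with higher H3K27ac, 1 with higher H3K4me3 and 2 not called, at a median log2 difference of 1.64, where all genes had 41.9%, 42.8% and -0.01. Within 2.5 kb all 12 had higher H3K27ac, at a median of 1.51, and even with scaling by reads in peaks the median stayed above 0 (0.31). Spi1, the transcription factor that specifies myeloid cells, held 6.16 to 11.3 scaled RPM of H3K4me3 (median 8.82) and 17.6 to 151 of H3K27ac (median 54.8), a difference of 2.74 ± 0.29 (SE; edgeR adjusted p = 7.13e-06). Cx3cr1, the fractalkine receptor of microglia, held 6.39 to 16.2 (median 9.86) and 15.4 to 48.9 (median 21.7), which overlapped between the marks, with a difference of 1.36 ± 0.16 (adjusted p = 1.43e-05, edgeR) in peaks of nearly equal width, 5.2 and 5.4 kb. C1qc, a complement subunit, differed by 2.22 ± 0.09 without overlap. C1qa and C1qb, also called with higher H3K27ac, had the same highest acetyl value as C1qc, 70.1 scaled RPM, so these calls are not independent.

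Of 16 oligodendrocyte genes, 15 had higher H3K27ac and 1 had higher H3K4me3 (41.9% and 42.8% of all promoters did), with medians of 0.76 over whole peaks and 0.80 within 2.5 kb, but -0.55 on the scale of reads in peaks. Gpr17, a receptor of oligodendrocyte precursors, held 4.88 to 16.0 scaled RPM of H3K4me3 (median 11.4) and 92.4 to 215 of H3K27ac (median 140), a difference of 3.87 ± 0.20 (SE; edgeR adjusted p = 4.27e-08). Cspg4, the NG2 proteoglycan of precursors, and Myrf, the factor that turns on myelin genes, differed by 3.31 ± 0.27 and 3.01 ± 0.17. Mog, a protein of the myelin surface, differed by 1.87 ± 0.13, with medians of 25.4 and 96.7 and no overlap. Ugt8a, which makes the lipid of myelin, was the exception at -0.58 ± 0.04 and was not called within 2.5 kb (0.07). Of 16 astrocyte genes 11 had higher H3K27ac and 3 higher H3K4me3 (median 0.51; -0.80 on the scale of reads in peaks; 13 and 1 within 2.5 kb), with S100b at 2.74 ± 0.26, Apoe at 1.60 ± 0.05 and Gfap at 1.38 ± 0.10. Of 8 endothelial and pericyte genes 5 had higher H3K27ac and 2 higher H3K4me3 (median 0.67; -0.64 on that scale), and within 2.5 kb 7 and 0 did.

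Neuronal genes were called in both directions, where all promoters had 41.9% with higher H3K27ac and 42.8% with higher H3K4me3. Within 2.5 kb, where the shares of all promoters were 36.5% and 38.7%, nearly all calls were for H3K27ac, with 12 and 1 of the excitatory genes, 15 and 1 of the synapse genes, 10 and 0 of the receptor genes and 9 and 0 of the inhibitory genes. Of 17 excitatory genes 10 had higher H3K27ac and 5 higher H3K4me3, with a median of 0.32 (-0.998 on the scale of reads in peaks). Bcl11b, a factor of deep-layer projection neurons, held 55.3 to 168 scaled RPM of H3K4me3 (median 98.0) and 145 to 1251 of H3K27ac (median 444), with overlap and a difference of 2.25 ± 0.20 (SE; edgeR adjusted p = 1.55e-06). Camk2a, the kinase of synaptic plasticity, held 123 to 154 (median 141) and 378 to 887 (median 678) without overlap, a difference of 2.06 ± 0.19 in peaks of 14 and 48 kb. Cux1, a factor of upper-layer neurons, went the other way at -0.97 ± 0.04. Of 10 inhibitory genes 2 had higher H3K27ac, among them Pvalb (1.43 ± 0.16), the calcium buffer of fast-spiking cells, 2 had higher H3K4me3 and 6 were not called. Dlx2, which directs interneuron fate, moved from -0.90 ± 0.35 over peaks of 20.8 kb of H3K4me3 and 3.2 kb of H3K27ac to 0.67 within 2.5 kb. Of 17 synapse genes 11 had higher H3K27ac and 3 higher H3K4me3 (median 0.87; -0.44 on the scale of reads in peaks), led by the scaffold Shank1 (2.33 ± 0.22). Of 20 receptor genes for glutamate and GABA, 8 and 9 were called over whole peaks (median -0.05), near the shares of all promoters, unlike within 2.5 kb (median 0.17).

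Activity and disease genes were also called in both directions, beside the same 41.9% and 42.8% of all promoters. Of 20 immediate early genes 11 had higher H3K27ac and 6 higher H3K4me3 (median 0.18, or -1.13 on the scale of reads in peaks). Within 2.5 kb 9 and 7 did (median -0.02). Nr4a1, a nuclear receptor induced by activity, held 73.2 to 101 scaled RPM of H3K4me3 (median 84.7) and 304 to 822 of H3K27ac (median 617), a difference of 2.55 ± 0.20 (SE; edgeR adjusted p = 5.45e-07) in an acetyl peak of 54.6 kb. Fos, the component of AP-1, held 91.5 to 120 (median 104) and 61.0 to 89.3 (median 73.2), a difference of -0.48 ± 0.04. Arc, which shapes synapses after activity, was at 1.26 ± 0.06 over whole peaks and not called within 2.5 kb (-0.08). Of 20 genes of amyloid processing and Alzheimer risk 14 had higher H3K27ac and 4 higher H3K4me3, with a median of 0.75 over whole peaks but 0.04 within 2.5 kb and -0.57 on the scale of reads in peaks. App held 156 to 167 (median 164) and 133 to 162 (median 147), a difference of -0.14 ± 0.05 (edgeR adjusted p = 0.0223) that was not called within 2.5 kb. Trem2, a receptor of microglia, and Epha1 had higher H3K27ac by both counts, 1.48 ± 0.17 and 2.02 ± 0.09 over whole peaks and 1.74 and 2.09 within 2.5 kb.

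Of 24 genes for the enzymes of the marks themselves, 11 had higher H3K27ac and 12 higher H3K4me3 (median -0.14), shares near the 41.9% and 42.8% of all promoters. Within 2.5 kb 6 and 13 were called (median -0.11), where all promoters had 36.5% and 38.7%. Kat2a, an acetyltransferase (2.65 ± 0.12), and Hdac5, a deacetylase (2.20 ± 0.07), lay in acetyl peaks of 33.4 and 43 kb, and within 2.5 kb they differed by 0.28 and 0.31. Ezh2, the methyltransferase of PRC2, held 99.5 to 125 scaled RPM of H3K4me3 (median 113) and 42.8 to 59.3 of H3K27ac (median 48.6), a difference of -1.15 ± 0.06 (SE; edgeR adjusted p = 2.74e-08) without overlap, and its partner Suz12 differed by -0.91 ± 0.05. Housekeeping genes had 14 with higher H3K27ac and 4 with higher H3K4me3 of 20 (median 0.64), and within 2.5 kb 8 and 5 (median 0.02). Gapdh, of glycolysis, was at 1.63 ± 0.15 in an acetyl peak of 45.8 kb and at -0.24 within 2.5 kb.

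Levels of the marks at promoters were alike between animals and less alike between marks. Across the 12248 genes, which are not independent replicates, Spearman's correlation coefficient was 0.955 to 0.982 between animals for H3K4me3 (36 pairs) and 0.864 to 0.926 for H3K27ac. Between the marks of an animal it was 0.573 to 0.650 (median 0.611), and between the marks of different animals it had a median of 0.599. Libraries of an animal share its tissue, and all values share the counting of whole peaks. H3K27ac varied more between animals, with a median coefficient of variation of 14.9% a gene against 5.42% for H3K4me3.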

How the data were processed

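Chromatin of 9 cortexes was immunoprecipitated for H3K4me3 and H3K27ac. Reads were mapped by the authors (bwa, build mm10) and unmapped, duplicate and low-quality reads were filtered out with SAMtools. Peaks were then called per library with epic2 (version not given in the sources used here) in bins of 200 bp. What the authors deposited for each peak is a count, the unnormalized whole number of its fragments. A score from epic2 was deposited beside it and served here only to rank peaks. Reads outside peaks were not used here, so depth is known only in peaks, and a gene without a peak may still hold reads.

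Tools were edgeR 4.0.16, DESeq2 1.42.0 and limma 3.58.1 under R 4.3.3, and SciPy 1.17.1, pandas 2.3.3 and NumPy 2.4.6 under Python 3.11.15. Each of 19986 genes has the TSS of its RefSeq Select transcript. Promoter peaks and distances were measured to 28443 curated TSSs. Library values were compared by exact sign-flip permutation within animals with Benjamini-Hochberg adjustment over 11 values, and reads by edgeR's quasi-likelihood test with an FDR under 0.1. RPM were scaled to all autosomal reads within the peaks of each library. The animal is the pairing, from codes in the deposited names. Deviations of same-numbered libraries correlated at 0.107 to 0.301, and 8 of 9 matched best with their own number. On simulated promoter reads of 12248 genes, edgeR recovered 100 of 100 genes changed 2-fold and 92 of 100 changed 1.5-fold, with 11 false calls. The simulation gave both marks the same spread, no animal effect and few changed genes, unlike the data, so these rates need not hold here. The median biological coefficient of variation was 14.6%.

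The members, lists, tests and the rule for naming genes were chosen with earlier results of these data known. Named are list members with the most reads or apart from their list, the 8 largest differences in each direction among called genes that did not overlap, the 8 leading genes of each class, the genes nearest the 8 widest sites of each mark and the 8 with most distal H3K27ac sites. Genes without a symbol of their own were left out, and some named genes are not reported here. Alternatives were other peak sets, promoter widths, overlaps, scalings, filters and tools, the fit without pairing, each animal left out in turn, and the libraries of animals 8 and 9, whose deposited names carry a run number, left out together.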

Additional observations from a re-analysis of the deposited data

Results flagged for a closer look

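Of 85 groups of 9 values examined, 20 held a value far from the rest by Dixon's criterion (23.5%), where chance gives about 1 in 20 groups, and 13 of the 20 were in animal 9. Its acetyl library had the fewest reads in peaks, 3903965, a median density of 14.7 reads per kb, the highest share of peaks at promoters, 28.5%, the shortest median distance to a TSS, 12.4 kb, and the lowest share of TSSs with a peak, 65.0%. In the same animal 80.3% of H3K4me3 peaks met H3K27ac, the lowest share, and 39.1% of H3K27ac peaks met H3K4me3, the highest.

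Single genes stood apart as well. In animal 9, H3K4me3 was highest at the shared promoter of Setd1b (368 RPM) and Rhof (368 RPM), at Tbxa2r (7.32 scaled RPM) and at Fam174c (89.5), and H3K27ac was lowest at Fam83e (14.9 RPM) and Tgfbr3l (26.1 RPM). In animal 5, Prnp was lowest in H3K4me3 (106 RPM) and H3K27ac (57.9 RPM), Dbp was lowest in H3K4me3 (185 RPM) and Csf3 highest in H3K27ac (667 RPM). In animal 7, H3K27ac was lowest at Il12rb1 (183 RPM) and Ifi30 (523 scaled RPM), which shared their acetyl reads in the other animals. In animal 6, H3K4me3 was highest at Mdk (125 scaled RPM). The causes were not tested.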

How the results depend on the processing

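Most results kept their direction and call, 373 of 414 values under all alternatives, as did all 272 of the 16 genes with the largest read differences. Members of the gene lists were recomputed only within 2.5 kb and on the scale of reads in peaks, and some changed call or sign, as given with them. With the 18492 best-scoring peaks of each library the difference in reads in peaks turned to -0.21 (log2), that in median distance to 0, and that in TSSs with a peak to -7.76 points. H3K4me3 alone then counted 1084 genes (CpG-rich 44.5%), H3K27ac alone 113, both marks were 80.6% CpG-rich, and distal sites were 1015 of H3K4me3 without H3K27ac and 2312 of H3K27ac, 1258 of them without H3K4me3. With a mark in at least 5 of 9 libraries, H3K4me3 alone counted 441 (42.4% CpG-rich), H3K27ac alone 888, both marks were 73.6% and neither 2.97% CpG-rich, and distal sites were 6063 and 29409, 228 and 22995 without the other mark. With at least 3 of 9 the counts were 404 (40.6% CpG-rich) and 992, with 72.8% for both marks, and with promoters of 3 kb 75.2%. Scaled by reads in peaks, 1170 promoters had higher H3K27ac and 10140 higher H3K4me3, 472 and 7892 at 2-fold, within 2.5 kb 857 and 28 at 2-fold, and with no filter (a peak in at least 9 of 18 libraries) 551 for H3K4me3 at 2-fold. The causes were not tested.

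Reads in peaks differed by 0.58 without animal 9 and by 0.66 without the libraries with a run number. Without each animal in turn, differences ran from 0.20 to 0.58 (log2) in reads in peaks and from 1.74 to 2.65 points in TSSs with a peak, the latter call lost without any of animals 1 to 8. Leaving out the gastrocnemius of animal 5, an alternative chosen after seeing the data, changed no call. Without pairing (no replicate block), no library value changed its call: peaks per library kept p = 4.11e-05 (exact permutation, 48620 relabellings), the share of TSSs with a peak had p = 0.00810, while 5196 promoters had higher H3K27ac and 5083 higher H3K4me3.

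Peaks called in each library depend on its depth, a mark under the calling limit counts as absent, and acetyl reads of wide peaks are shared by neighbouring genes.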
